A study of Mus musculus with 12 samples.

Results

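The genes described here encode the proteasome: its core particle, its regulatory particle, its activators, its assembly factors and its inhibitor. They were chosen by symbol, as every gene of the array annotation whose name is Psma, Psmb, Psmc, Psmd, Psme, Psmf or Psmg followed by a digit, without pseudogenes. The rule found 49 of the 22180 genes measured by a row with 1 symbol. Of these, Psmc3ip, a factor of meiotic recombination, and Psme3ip1, a protein that binds the product of Psme3, match only by their letters, which leaves 47 proteasome genes. Psma4, of the alpha ring, was carried only by 2 rows that also name a second gene and was not tested.

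RNA was measured in sorted CD4+ T cells from spleens of 8-week-old Foxp3.eGFP mice on the C57BL/6 background, a reporter strain in which cells that express Foxp3 fluoresce. All animals carried the reporter. Regulatory T cells (Treg, Foxp3+) and effector T cells (Teff, Foxp3-) were sorted from 3 preparations of total CD4+ cells. The first had been cultured for 3 days with antibodies to CD3 and CD28 (anti-CD3-CD28, 2 µg/ml of each), which engage the T cell receptor and its costimulator. The second had been cultured for 3 days with OX40L at 5 µg/ml and JAG1 at 1 µg/ml, both soluble, ligands of OX40 and of Notch receptors, a stimulus given without engaging the T cell receptor (OX40L-JAG1). The control cells were fresh and untreated, so stimulus and culture cannot be told apart in any comparison with control. The question was how expanding Treg through the T cell receptor compares with expanding them without it. There were 2 arrays in each of the 6 groups, called replicate 1 and replicate B, and values are given in that order. No label says that replicates came from separate animals, so p-values measure the spread between these arrays, possibly a technical one. Precision is limited by having so few arrays.

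Levels are log2 intensities, changes are differences of their group means, and a change is called at an adjusted p (Benjamini-Hochberg, limma, over all genes of a comparison) under 0.05. Statements that groups overlap or not describe the 2 arrays of each group and are not a test. The share of all genes whose groups separate is not given. For a gene named because it was called, separation adds nothing to the call. Foxp3 read 10.36 to 11.22 on the 6 Treg arrays and 5.58 to 6.81 on the 6 Teff arrays. The OX40L-JAG1 Teff arrays stood apart: the SD over genes was 1.71 and 1.49 on them, against 1.95 to 2.19 on the other 10 arrays, and their replicates correlated across genes at r = 0.881, against 0.984 to 0.994 in the other groups. All groups share 1 estimate of the spread, so the main counts of proteasome genes that do not need these 2 arrays are also given without them. Markers of other cells differed between groups. The 6 neutrophil markers averaged 9.22 and 7.59 in OX40L-JAG1 Teff and 6.68 and 6.00 in OX40L-JAG1 Treg, against 4.28 to 4.52 in the other Teff arrays and 3.72 to 4.39 in the other Treg arrays. Against control, 5 of 6 neutrophil, 7 of 9 myeloid and dendritic, 3 of 5 basophil and mast cell and 3 of 3 platelet markers were called higher in OX40L-JAG1 Teff, and 3, 4, 2 and 2 of them in OX40L-JAG1 Treg (4, 7, 3 and 2 when the OX40L-JAG1 Teff arrays were left out). The platelet markers were Ppbp, Pf4 and Itga2b, and no erythroid marker was among the genes measured. With anti-CD3-CD28, 3 of 3 platelet and 1 of 6 neutrophil markers were called higher and 4 of 6 B cell markers lower in Teff. In Treg, 1 of 3 platelet, 1 of 6 neutrophil and 1 of 6 B cell markers (H2-Ab1) were called higher. In OX40L-JAG1 Treg 2 of the 6 B cell markers were called higher, H2-Ab1 and H2-Aa, both genes of MHC class II. Cd79a, Cd79b, Ms4a1 and Cd22 were called higher in neither stimulated Treg group. In OX40L-JAG1 Teff 1 of 6 B cell markers was called lower, and 5 of 6 were lower in control Treg than in control Teff. Among the 5 CD8 T and NK cell markers, 1 was called lower and 0 higher in control Treg against control Teff. Against control, 1 was called higher in anti-CD3-CD28 Teff, 1 lower in OX40L-JAG1 Teff and 0 in the stimulated Treg groups. Klrd1, of this list, read 3.82 to 5.59 on the 6 Treg arrays and 6.24 to 8.61 on the 6 Teff arrays. Of the 3 CD4 T cell markers, 3 were called lower in OX40L-JAG1 Teff and 2 in anti-CD3-CD28 Teff, and 0 in the stimulated Treg groups. Of all genes, 26.9% and 9.75% were called lower in those Teff groups. Without the OX40L-JAG1 Teff arrays, 3 were lower in anti-CD3-CD28 Teff and 1 in anti-CD3-CD28 Treg, against 16.5% and 6.75% of all genes. With the trend of change with level removed, 2 were lower in OX40L-JAG1 Teff, 2 in anti-CD3-CD28 Teff and 1 in anti-CD3-CD28 Treg. The part of these markers in the results below was not tested. In bulk RNA, a smaller share of cells of a type and less RNA per cell cannot be told apart.

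The proteasome degrades proteins that carry ubiquitin. Its core particle, the 20S, is a stack of alpha and beta rings whose beta ring holds the proteolytic sites, and the 19S regulatory particle recognises, deubiquitinates and unfolds the substrate. Lymphocytes exchange the constitutive catalytic subunits for inducible ones, which gives the immunoproteasome, and its peptides feed MHC class I presentation. Psmb8 takes the place of Psmb5, which cleaves after hydrophobic residues, Psmb9 that of Psmb6, which cleaves after acidic residues, and Psmb10 that of Psmb7, which cleaves after basic residues.

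The sequences before the start sites of 2 of these pairs are shown because the inducible and the constitutive partner gave different values below. RefSeq (GRCm38.p6) held a window of 300 bases, 250 before and 50 after the start, for 41 of the 49 genes. Capitals mark matches, on either strand, to 5 motifs: TGACNNNGC (the antioxidant response element recognised by Nfe2l1 and Nfe2l2), TTCNNNGAA (STAT), GAAA and GAAA with 2 bases between (the interferon regulatory factor motif), CCAAT (NF-Y) and GGG and CC with 5 bases between (the NF-kappaB motif). The Psmb9 window is chr17:34187281-34187580 (minus strand), Psmb8 is chr17:34197945-34198244 (plus strand), Psmb5 is chr14:54617946-54618245 (minus strand) and Psmb6 is chr11:70525107-70525406 (plus strand), each printed 5′ to 3′ along its gene.
Psmb9: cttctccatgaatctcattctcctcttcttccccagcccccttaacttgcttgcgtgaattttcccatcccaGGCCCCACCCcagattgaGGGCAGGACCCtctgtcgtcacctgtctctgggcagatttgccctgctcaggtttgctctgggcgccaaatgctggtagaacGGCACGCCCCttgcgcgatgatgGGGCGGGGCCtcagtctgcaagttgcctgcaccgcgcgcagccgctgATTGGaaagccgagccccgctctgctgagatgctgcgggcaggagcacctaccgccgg
Psmb8: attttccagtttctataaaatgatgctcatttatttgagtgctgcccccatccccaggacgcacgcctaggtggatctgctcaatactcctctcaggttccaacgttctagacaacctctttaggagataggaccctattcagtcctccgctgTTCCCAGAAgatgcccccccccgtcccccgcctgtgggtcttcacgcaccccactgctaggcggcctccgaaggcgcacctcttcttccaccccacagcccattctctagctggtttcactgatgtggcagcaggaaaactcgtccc
Psmb5: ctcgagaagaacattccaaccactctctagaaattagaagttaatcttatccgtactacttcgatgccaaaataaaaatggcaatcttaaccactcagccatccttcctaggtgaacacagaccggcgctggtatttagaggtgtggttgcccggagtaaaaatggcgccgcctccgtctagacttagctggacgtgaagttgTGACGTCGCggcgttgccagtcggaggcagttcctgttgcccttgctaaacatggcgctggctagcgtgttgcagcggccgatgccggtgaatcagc
Psmb6: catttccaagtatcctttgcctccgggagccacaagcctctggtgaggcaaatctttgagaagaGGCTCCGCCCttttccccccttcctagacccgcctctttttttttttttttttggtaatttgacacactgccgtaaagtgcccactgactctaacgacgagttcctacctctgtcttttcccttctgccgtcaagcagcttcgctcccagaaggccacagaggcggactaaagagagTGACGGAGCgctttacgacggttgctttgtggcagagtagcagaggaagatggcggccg
Psmb5 and Psmb6 each hold TGACNNNGC, whose first base lies at -47 and at -9 from the start, and neither of the inducible windows shown does. Psmb9 holds 5 matches to the NF-kappaB motif, which was searched in a loose form that fixes only its outer letters. They lie at -178, -160, -159, -78 and -55, the pair at -160 and -159 overlapping. Psmb9 also holds CCAAT at -8. Psmb8 holds TTCNNNGAA at -97, and Psmb6 also the NF-kappaB motif at -186. The Psmb9 window shares 275 bases with that of Tap1 (chr17:34187306-34187605), a transporter of peptides for MHC class I, which is read from the opposite strand. Over the 39 proteasome genes with a window, TGACNNNGC was found in 6 (Psmb5, Psmb6, Psmc6, Psmd12, Psmd9 and Psme4), against 12.5% of all 27025 windows, and the interferon regulatory factor motif in 5, against 3.49%. TTCNNNGAA was found in 3, against 8.47%, CCAAT in 14, against 37.9%, and the NF-kappaB motif in 21, against 50.4%. A match says only that these letters are present. A match to the loose NF-kappaB form need not be a site that NF-kappaB binds.

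The inducible catalytic genes read higher on every stimulated Treg array than on the fresh ones, while their constitutive partners lay close to the fresh level. Psmb9 read 9.62 and 9.55 in anti-CD3-CD28 Treg, 9.40 and 9.09 in OX40L-JAG1 Treg and 8.52 and 8.64 in control Treg. Psmb8 read 10.75 and 10.50 in anti-CD3-CD28 Treg, 10.42 and 10.12 in OX40L-JAG1 Treg and 10.04 and 9.89 in control Treg. For both genes the 3 groups did not overlap and kept the order anti-CD3-CD28, OX40L-JAG1, control. Psmb10 read 10.00 and 9.86 in anti-CD3-CD28 Treg, 10.29 and 9.95 in OX40L-JAG1 Treg and 9.42 and 9.41 in control Treg. Here both stimulated groups lay above control and overlapped each other.

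Among the constitutive partners, Psmb5 read 8.31 and 8.21 in anti-CD3-CD28 Treg, 8.34 and 8.07 in OX40L-JAG1 Treg and 8.32 and 8.04 in control Treg. Psmb7 read 9.43 and 9.50 in anti-CD3-CD28 Treg, 9.41 and 9.24 in OX40L-JAG1 Treg and 9.37 and 9.42 in control Treg. Psmb6 read 8.38 and 8.41 in anti-CD3-CD28 Treg, 8.15 and 8.18 in OX40L-JAG1 Treg and 8.28 and 8.30 in control Treg. The Psmb5 groups overlapped, and no constitutive gene differed by more than 0.14 in either comparison with control Treg.

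In anti-CD3-CD28 Treg against control Treg, the change was 1.01 ± 0.39 for Psmb9 (SE; adjusted p = 0.146, limma), 0.66 ± 0.33 for Psmb8 (adjusted p = 0.284) and 0.51 ± 0.39 for Psmb10 (adjusted p = 0.507), none of them called. The constitutive genes gave 0.08 for Psmb5, 0.10 for Psmb6 and 0.07 for Psmb7, with adjusted p-values of 0.94, 0.902 and 0.923. Fitted without the 2 OX40L-JAG1 Teff arrays, the same changes had an SE of 0.16, and Psmb9 (adjusted p = 0.000611), Psmb8 (adjusted p = 0.0136) and Psmb10 (adjusted p = 0.0423) were called. In OX40L-JAG1 Treg against control Treg, the change was 0.70 ± 0.39 for Psmb10 (adjusted p = 0.64), 0.67 ± 0.39 for Psmb9 (adjusted p = 0.677) and 0.30 ± 0.33 for Psmb8 (adjusted p = 0.903). With those arrays left out, Psmb10 (adjusted p = 0.0272) and Psmb9 (adjusted p = 0.0293) were the only proteasome genes called in that comparison, and Psmb8 was not (adjusted p = 0.357). In the anti-CD3-CD28 comparison, Psmb9 gave 0.69 after quantile normalization (adjusted p = 0.22). It gave 0.68 (adjusted p = 0.145) after cyclic loess between arrays, which removes the trend of change with level and was chosen after seeing the data.

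**Figure D1:**
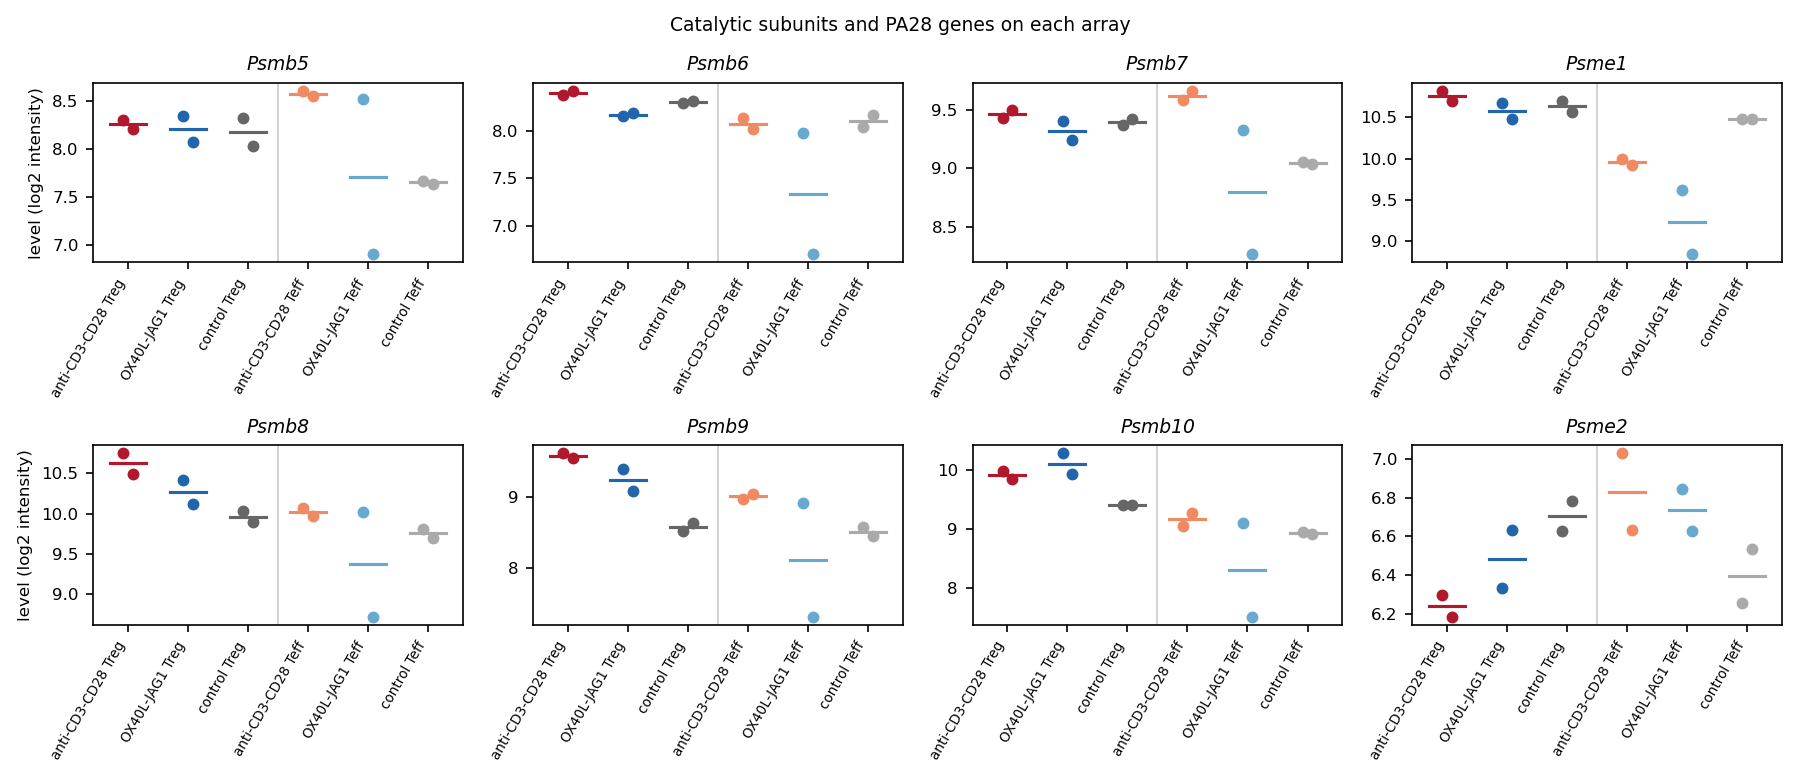
Level (log2 intensity, vertical axis) of the catalytic subunit genes and of Psme1 and Psme2 on each of the 12 arrays, with a bar at each group mean and Treg groups left of Teff groups. Psmb8 and Psmb9 sit highest in anti-CD3-CD28 Treg, and the lower OX40L-JAG1 Teff point is replicate B.

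In anti-CD3-CD28 Teff, Psmb5 and Psmb7 had larger differences from control than their inducible partners. Psmb5 read 8.61 and 8.55 in anti-CD3-CD28 Teff, 8.52 and 6.90 in OX40L-JAG1 Teff and 7.67 and 7.64 in control Teff. Psmb7 read 9.58 and 9.66 in anti-CD3-CD28 Teff, 9.33 and 8.26 in OX40L-JAG1 Teff and 9.05 and 9.04 in control Teff. Psmb6 read 8.13 and 8.01 in anti-CD3-CD28 Teff, 7.97 and 6.70 in OX40L-JAG1 Teff and 8.04 and 8.16 in control Teff. Psmb5 and Psmb7 lay above control in both anti-CD3-CD28 arrays, Psmb6 overlapped it, and for all 3 the OX40L-JAG1 replicates lay further apart than those of any other group.

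Psmb8 read 10.07 and 9.97 in anti-CD3-CD28 Teff, 10.02 and 8.73 in OX40L-JAG1 Teff and 9.81 and 9.70 in control Teff. Psmb9 read 8.97 and 9.05 in anti-CD3-CD28 Teff, 8.92 and 7.30 in OX40L-JAG1 Teff and 8.57 and 8.45 in control Teff. Psmb10 read 9.06 and 9.28 in anti-CD3-CD28 Teff, 9.11 and 7.52 in OX40L-JAG1 Teff and 8.96 and 8.92 in control Teff. In all 3, anti-CD3-CD28 Teff lay above control without overlap, and OX40L-JAG1 Teff had one array above control and one below. The change in anti-CD3-CD28 Teff against control Teff was 0.93 ± 0.39 for Psmb5 (adjusted p = 0.147, limma), 0.58 ± 0.28 for Psmb7 (adjusted p = 0.215), 0.50 ± 0.39 for Psmb9 (adjusted p = 0.461), 0.26 for Psmb8 (adjusted p = 0.68) and 0.23 for Psmb10 (adjusted p = 0.771). When the OX40L-JAG1 Teff pair was left out, Psmb5 (adjusted p = 0.00101), Psmb7 (adjusted p = 0.00937) and Psmb9 (adjusted p = 0.0307) were called. Psmb5 and Psmb7 were also called after quantile normalization (adjusted p = 0.0339 and 0.0199), where their changes were 1.12 and 0.75.

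Each inducible gene was then set against its partner within an array. The difference of their changes against control of the same cell type was 0.65 and 0.50 for Psmb8 minus Psmb5 in anti-CD3-CD28 Treg and 0.29 and 0.26 in OX40L-JAG1 Treg, but -0.64 and -0.69 in anti-CD3-CD28 Teff and -0.61 and -0.28 in OX40L-JAG1 Teff. For Psmb10 minus Psmb7 it averaged 0.44 ± 0.14 in anti-CD3-CD28 Treg, 0.77 ± 0.13 in OX40L-JAG1 Treg, -0.35 ± 0.10 in anti-CD3-CD28 Teff and -0.37 ± 0.37 in OX40L-JAG1 Teff (SD, n = 2 each). Both pairs thus differed in sign between all 4 stimulated Treg and all 4 stimulated Teff arrays. Psmb9 minus Psmb6 was positive on all 8 stimulated arrays and averaged 0.91 ± 0.08 in anti-CD3-CD28 Treg, 0.80 ± 0.25 in OX40L-JAG1 Treg, 0.53 ± 0.14 in anti-CD3-CD28 Teff and 0.36 ± 0.25 in OX40L-JAG1 Teff. These differences were not tested. The sign of each group mean was the same after quantile normalization and after cyclic loess. In anti-CD3-CD28 Treg, Psmb8 minus Psmb5 was then 0.83 and 0.61, and in anti-CD3-CD28 Teff -0.70 and -0.68.

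**Figure D2:**
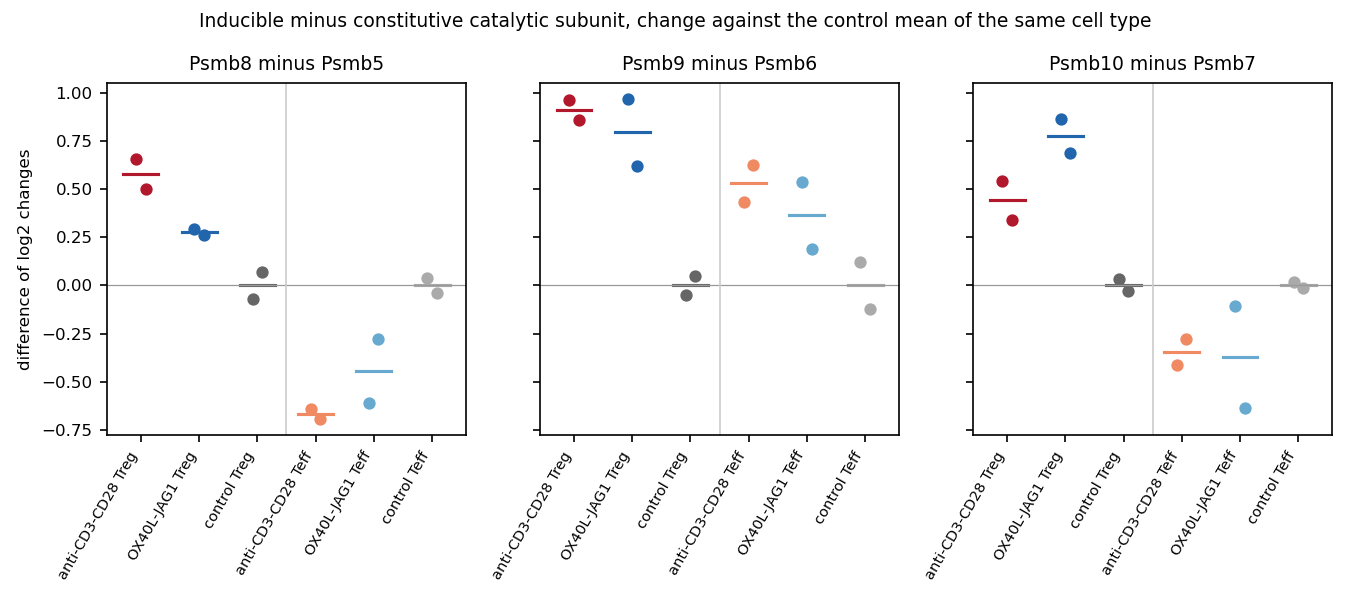
Difference between the log2 change of an inducible catalytic gene and that of its constitutive partner on each array, both against the control mean of the same cell type, with a bar at each group mean. For Psmb8 minus Psmb5 and Psmb10 minus Psmb7 the stimulated Treg points lie above 0 and the stimulated Teff points below it.

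The activator genes of the immunoproteasome set had values unlike those of its catalytic genes. Psme1 and Psme2 encode the subunits of PA28, a ring that opens the core. Psme1 read 10.81 and 10.70 in anti-CD3-CD28 Treg, 10.67 and 10.47 in OX40L-JAG1 Treg and 10.70 and 10.57 in control Treg. In Teff it read 9.99 and 9.93 with anti-CD3-CD28, 9.62 and 8.84 with OX40L-JAG1 and 10.47 and 10.48 in control cells. Treg groups overlapped, and both stimulated Teff groups lay below control. The change was 0.12 ± 0.24 in anti-CD3-CD28 Treg (adjusted p = 0.826, limma), -0.52 ± 0.24 in anti-CD3-CD28 Teff (adjusted p = 0.19, or 0.02 once the OX40L-JAG1 Teff pair was left out) and -1.24 ± 0.24 in OX40L-JAG1 Teff (adjusted p = 0.0018), each against its control. The last sign did not hold with the level trend removed, where Psme1 gave 0.08 (adjusted p = 0.789). The fall of Psme1 in anti-CD3-CD28 Teff was not called after quantile normalization or with the level trend removed.

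Psme2 read 6.30 and 6.19 in anti-CD3-CD28 Treg, 6.34 and 6.63 in OX40L-JAG1 Treg and 6.63 and 6.78 in control Treg. In Teff it read 7.03 and 6.63 with anti-CD3-CD28, 6.84 and 6.63 with OX40L-JAG1 and 6.26 and 6.54 in control cells. It was lower than control in anti-CD3-CD28 Treg, with a change of -0.46 ± 0.21 (adjusted p = 0.232), and higher in both stimulated Teff groups, with 0.43 ± 0.21 in anti-CD3-CD28 Teff (adjusted p = 0.216), none of them called. Psme2 has near-identical copies in the mouse genome and a further row names it together with other genes, so its values are uncertain. Over the 5 genes of the set (Psmb8, Psmb9, Psmb10, Psme1 and Psme2) the median change in anti-CD3-CD28 Treg was 0.51, against -0.05 over all genes, and 0 were called (limma; 1 at an unadjusted p under 0.05, or 3 called when the OX40L-JAG1 Teff pair was left out). Without that pair the share of all genes called in this comparison also rose, from 10.1% to 21.5% (14.8% higher). The change ran with level here: in the top of 5 equal bins of genes ranked by mean level, which holds all of the set but Psme2, the median was 0.29. After quantile normalization the median of the set was 0.28, and with the level trend removed 0.19.

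Of the 49 genes, 3 rose and 0 fell in anti-CD3-CD28 Treg against control Treg, a smaller share than the 10.1% of all genes called in either direction (8.08% higher and 1.97% lower). The median change was 0.16, but -0.07 when arrays were quantile normalized and -0.09 after loess. The top of the 5 level bins, which holds 37 of the 47 proteasome genes, had 17.7% of its genes called higher. Psmd2, a scaffold of the 19S base that receives ubiquitin-like proteins, read 8.96 and 8.96 in anti-CD3-CD28 Treg, 8.34 and 8.42 in OX40L-JAG1 Treg and 8.00 and 8.21 in control Treg. Psmd3, of the 19S lid, read 7.95 and 7.91 in anti-CD3-CD28 Treg, 7.51 and 7.50 in OX40L-JAG1 Treg and 7.17 and 7.37 in control Treg. Psme4, which encodes the nuclear activator PA200, read 8.37 and 8.38 in anti-CD3-CD28 Treg, 7.90 and 8.17 in OX40L-JAG1 Treg and 7.47 and 7.56 in control Treg. In all 3 genes, which are shown because they were called, OX40L-JAG1 Treg lay in between. The rises were 0.85 ± 0.18 for Psmd2 (adjusted p = 0.0119, limma), 0.66 ± 0.18 for Psmd3 (adjusted p = 0.035) and 0.86 ± 0.21 for Psme4 (adjusted p = 0.0238).

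The remaining 19S genes did not pass the threshold. Psmd1, the other large scaffold of the base, read 8.66 and 8.63 in anti-CD3-CD28 Treg, 7.48 and 7.67 in OX40L-JAG1 Treg and 7.91 and 7.20 in control Treg. Its change of 1.09 ± 0.35 was the highest of the 49 and was not called (adjusted p = 0.0812). Psmc1, an ATPase of the base, read 8.91 and 8.73 in anti-CD3-CD28 Treg, 8.20 and 8.13 in OX40L-JAG1 Treg and 8.06 and 8.23 in control Treg, a change of 0.67 ± 0.25 against control (adjusted p = 0.13). Psmc3, another of the ATPases, read 8.13 and 8.20 in anti-CD3-CD28 Treg, 7.73 and 7.85 in OX40L-JAG1 Treg and 8.00 and 8.14 in control Treg. It overlapped control and was the ATPase gene with the lowest change, 0.10. At the low end of the base and lid, Psmd4, a ubiquitin receptor, read 7.73 and 7.80 in anti-CD3-CD28 Treg, 7.65 and 7.84 in OX40L-JAG1 Treg and 7.82 and 7.58 in control Treg. Psmd14, the deubiquitinase of the lid, read 8.49 and 8.49 in anti-CD3-CD28 Treg, 8.45 and 8.41 in OX40L-JAG1 Treg and 8.56 and 8.16 in control Treg. Both overlapped control, with changes of 0.06 and 0.13.

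The 17 genes of the regulatory particle had a median change of 0.39 in anti-CD3-CD28 Treg, with 2 called higher, and the 13 of the core a median of 0.08, with 0 called (limma; 0 at an unadjusted p under 0.05). After quantile normalization these medians were 0.04 for the regulatory particle and -0.25 for the core, and with the level trend removed 0.08 and -0.23, with 0 called in either. Psma1, the alpha ring gene with the highest change, read 8.45 and 8.42 in anti-CD3-CD28 Treg, 8.27 and 8.19 in OX40L-JAG1 Treg and 7.88 and 7.96 in control Treg, a difference of 0.51 ± 0.46 (adjusted p = 0.593). Psma2, the lowest, read 9.66 and 9.64 in anti-CD3-CD28 Treg, 10.09 and 9.94 in OX40L-JAG1 Treg and 9.79 and 9.84 in control Treg, a difference of -0.16. Psmb2, a structural beta subunit, read 8.58 and 8.70 in anti-CD3-CD28 Treg, 8.46 and 8.45 in OX40L-JAG1 Treg and 8.34 and 8.35 in control Treg, a difference of 0.29. Psmb1, another, read 10.05 and 9.83 in anti-CD3-CD28 Treg, 10.64 and 10.11 in OX40L-JAG1 Treg and 10.49 and 10.32 in control Treg, and its difference of -0.47 ± 0.45 was the lowest of the 49 (adjusted p = 0.627). None of the 4 was called, and their differences ran in both directions.

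Without the OX40L-JAG1 Teff arrays, 12 genes were called higher and 0 lower in anti-CD3-CD28 Treg against control Treg, where 14.8% of all genes were called higher and 6.75% lower. They were Psmd1 (1.09, adjusted p = 0.00254), Psmb9, Psme4, Psmd2, Psmc1 (0.67, adjusted p = 0.00688), Psmd3, Psmb8, Psmd7 (0.60), Psmd11 (0.59), Psmd12 (0.53), Psmb10 and Psma1 (0.51, adjusted p = 0.028). Of these, 7 belong to the regulatory particle, 3 to the immunoproteasome set and 1 to the core. The calls in this comparison were lost under other settings: after quantile normalization Psmd2, Psmd3 and Psme4 gave 0.47, 0.30 and 0.51 (adjusted p = 0.253, 0.458 and 0.0998), and with the level trend removed 0.52, 0.37 and 0.55 (adjusted p = 0.141, 0.268 and 0.0511). The count was 0 without anti-CD3-CD28 Treg replicate 1 or B or control Treg replicate 1, and 1 without control Treg replicate B.

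In OX40L-JAG1 Treg the proteasome genes stayed near the fresh level. None of the 49 was called against control Treg (limma; before adjustment, 1 higher and 0 lower), where 1.56% of all genes were called (0.996% higher and 0.559% lower), and the median change was 0.02. Changes ran from -0.57 for Psmg2, an assembly chaperone of the core, to 0.70 for Psmb10. With the OX40L-JAG1 Teff pair left out, 2 genes were called higher and 0 lower, Psmb10 and Psmb9 as above, against 5.41% of all genes (3.40% higher and 2.01% lower). Anti-CD3-CD28 Treg differed from OX40L-JAG1 Treg in 0 of the 49 (limma; before adjustment, 7 higher and 0 lower), against 5.91% of all genes (4.73% higher and 1.18% lower). Leaving out that pair, 9 were higher and 1 lower in anti-CD3-CD28 Treg, against 9.89% and 4.01% of all genes. Those higher were Psmd1 (1.07, adjusted p = 0.00417), Psmd12 (0.73), Psmd11 (0.68), Psmd7 (0.68), Psmc3ip (0.67), Psmc1 (0.65), Psmc4 (0.58), Psmd2 (0.58) and Psmc5 (0.49), all but Psmc3ip of the regulatory particle, and the one lower was Psmg4 (-0.59, adjusted p = 0.0305).

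**Figure D3:**
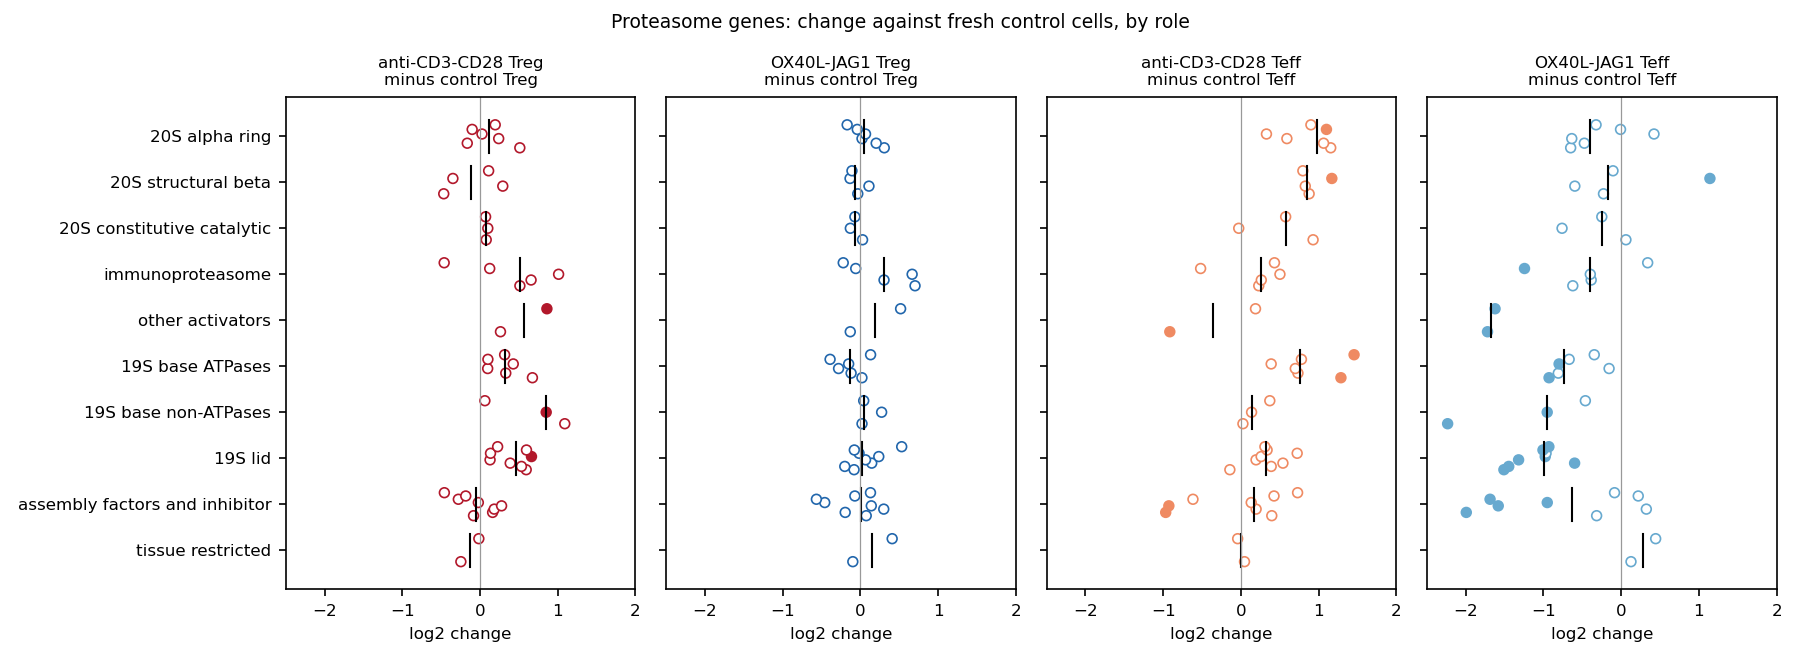
Log2 change against fresh control cells of the same cell type (horizontal axis) of each proteasome gene, by role, with filled points called at an adjusted p under 0.05 in the fit over 12 arrays and a black bar at the median of each role. The core rows lie near 0 in anti-CD3-CD28 Treg and to the right of 0 in anti-CD3-CD28 Teff.

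In anti-CD3-CD28 Teff, 2 of the 13 core genes and 2 of the 6 ATPase genes rose, and an assembly chaperone, an activator and the inhibitor fell. Of the 49 genes, 4 rose and 3 fell against control Teff, where 5.44% of all genes were called higher and 9.75% lower, and the median change was 0.39. Psmc1 read 9.12 and 9.21 in anti-CD3-CD28 Teff, 7.37 and 6.53 in OX40L-JAG1 Teff and 7.94 and 7.81 in control Teff. Psmc6, another ATPase of the base, read 10.19 and 10.19 in anti-CD3-CD28 Teff, 9.29 and 7.49 in OX40L-JAG1 Teff and 8.73 and 8.75 in control Teff. Psma6, of the alpha ring, read 9.07 and 8.99 in anti-CD3-CD28 Teff, 8.53 and 7.30 in OX40L-JAG1 Teff and 7.91 and 7.95 in control Teff. In each, both anti-CD3-CD28 arrays lay above both control arrays, and replicate B of OX40L-JAG1 Teff was the lowest of the 6 Teff arrays. Psmb3, a structural beta subunit, read 6.02 and 5.98 in anti-CD3-CD28 Teff, 5.95 and 6.00 in OX40L-JAG1 Teff and 5.00 and 4.66 in control Teff. Both stimulated groups were above control, whose mean lay below the lowest array median (4.87) and was not shown to be above background. With the control arrays set no lower than that median, the difference was 1.07 for anti-CD3-CD28 Teff and 1.04 for OX40L-JAG1 Teff, so the sizes given for Psmb3 against control Teff are not exact.

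The rises were 1.46 ± 0.42 for Psmc6 (adjusted p = 0.04, limma), 1.29 ± 0.25 for Psmc1 (adjusted p = 0.00488), 1.17 ± 0.22 for Psmb3 (adjusted p = 0.00441) and 1.10 ± 0.31 for Psma6 (adjusted p = 0.0334). All 4 were also called after quantile normalization, with changes of 1.65, 1.49, 1.14 and 1.32, and with the level trend removed, with 1.80, 1.63, 1.19 and 1.45. The 13 core genes had a median change of 0.88, against 0.08 in the Treg comparison above, and the 6 ATPase genes one of 0.76.

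The 3 genes that fell have separate roles. Psmd5, an assembly chaperone of the 19S base, read 7.27 and 7.34 in anti-CD3-CD28 Teff, 6.38 and 6.18 in OX40L-JAG1 Teff and 8.17 and 8.37 in control Teff. Psme3, a nuclear relative of PA28, read 7.12 and 7.11 in anti-CD3-CD28 Teff, 6.58 and 6.04 in OX40L-JAG1 Teff and 8.03 and 8.03 in control Teff. Psmf1, which encodes the inhibitor PI31, read 6.96 and 6.92 in anti-CD3-CD28 Teff, 5.92 and 6.64 in OX40L-JAG1 Teff and 7.83 and 7.90 in control Teff. All 3, shown because they were called, kept the order control, anti-CD3-CD28, OX40L-JAG1 from high to low. The falls in anti-CD3-CD28 Teff were -0.97 ± 0.20 for Psmd5 (adjusted p = 0.00783), -0.93 ± 0.24 for Psmf1 (adjusted p = 0.0225) and -0.91 ± 0.20 for Psme3 (adjusted p = 0.0103). Psmd5 and Psme3 were also called after quantile normalization (-0.73 and -0.67) and with the level trend removed (-0.67 and -0.63). Psmf1 was called under neither (-0.68, adjusted p = 0.388, and -0.63, adjusted p = 0.276). The 8 genes of the class that holds assembly factors and the inhibitor had a median of 0.17, with 5 positive, and the activator Psme4 gave 0.19.

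Without the OX40L-JAG1 Teff arrays, 21 genes were called higher and 5 lower in anti-CD3-CD28 Teff against control Teff, where 28.9% of all genes were called (12.5% higher and 16.5% lower). Among those higher were 11 of the 13 core genes and 7 of the 17 regulatory particle genes, with Psmc6 (adjusted p = 4.9e-05), Psma1 (1.16, adjusted p = 0.000124), Psma2 (1.07, adjusted p = 0.000169), Psmb1 (0.88, adjusted p = 0.0037) and Psmb2 (0.83, adjusted p = 0.00194) among them. The further genes lower were Psmg2 (-0.62, adjusted p = 0.0225) and Psme1. After quantile normalization 13 were higher and 2 lower, against 5.11% and 6.45% of all genes, and with the level trend removed 22 and 2, against 7.81% and 7.43%. The count was 0 without control Teff replicate B, 2 without anti-CD3-CD28 Teff replicate 1, and 3 without anti-CD3-CD28 Teff replicate B or control Teff replicate 1.

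Genes given above for Treg were also read in Teff. Psmd2 read 8.59 and 8.78 in anti-CD3-CD28 Teff, 7.71 and 7.48 in OX40L-JAG1 Teff and 8.63 and 8.47 in control Teff. Psmd3 read 7.76 and 7.86 in anti-CD3-CD28 Teff, 6.67 and 6.47 in OX40L-JAG1 Teff and 7.54 and 7.55 in control Teff. Psmc3 read 8.28 and 8.18 in anti-CD3-CD28 Teff, 7.86 and 6.89 in OX40L-JAG1 Teff and 7.60 and 7.45 in control Teff. For the lid and base genes Psmd2 and Psmd3 OX40L-JAG1 Teff lay below both other groups, and for Psmc3 anti-CD3-CD28 Teff lay above control. Psmd4 read 8.14 and 7.91 in anti-CD3-CD28 Teff, 8.09 and 6.30 in OX40L-JAG1 Teff and 7.65 and 7.66 in control Teff. Psmd14 read 8.23 and 8.31 in anti-CD3-CD28 Teff, 7.54 and 5.97 in OX40L-JAG1 Teff and 8.07 and 8.08 in control Teff. Both anti-CD3-CD28 arrays lay above control for both genes. Psma1 read 8.95 and 8.94 in anti-CD3-CD28 Teff, 8.14 and 6.12 in OX40L-JAG1 Teff and 7.66 and 7.91 in control Teff. Psma2 read 9.98 and 9.91 in anti-CD3-CD28 Teff, 9.61 and 7.20 in OX40L-JAG1 Teff and 8.94 and 8.82 in control Teff. Psmb1 read 10.48 and 10.40 in anti-CD3-CD28 Teff, 10.29 and 8.38 in OX40L-JAG1 Teff and 9.57 and 9.56 in control Teff. In these core genes anti-CD3-CD28 Teff lay above control on both arrays, and OX40L-JAG1 Teff had one array on either side of it. Psmb2 read 8.38 and 8.53 in anti-CD3-CD28 Teff, 7.63 and 6.44 in OX40L-JAG1 Teff and 7.46 and 7.80 in control Teff. Psmc3ip read 5.81 and 5.73 in anti-CD3-CD28 Teff, 5.08 and 5.33 in OX40L-JAG1 Teff and 4.96 and 5.35 in control Teff. Psme3ip1 read 8.26 and 8.58 in anti-CD3-CD28 Teff, 8.05 and 7.08 in OX40L-JAG1 Teff and 8.68 and 8.69 in control Teff. Psmb2 and Psmc3ip were above control with anti-CD3-CD28 and Psme3ip1 was below it. Psma8 read 3.70 and 4.13 in anti-CD3-CD28 Teff, 4.41 and 3.58 in OX40L-JAG1 Teff and 3.94 and 3.80 in control Teff. Psmb11 read 3.94 and 3.68 in anti-CD3-CD28 Teff, 4.02 and 4.56 in OX40L-JAG1 Teff and 3.70 and 4.001 in control Teff. The values of these genes lay below the lowest array median on every Teff array.

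**Figure D4:**
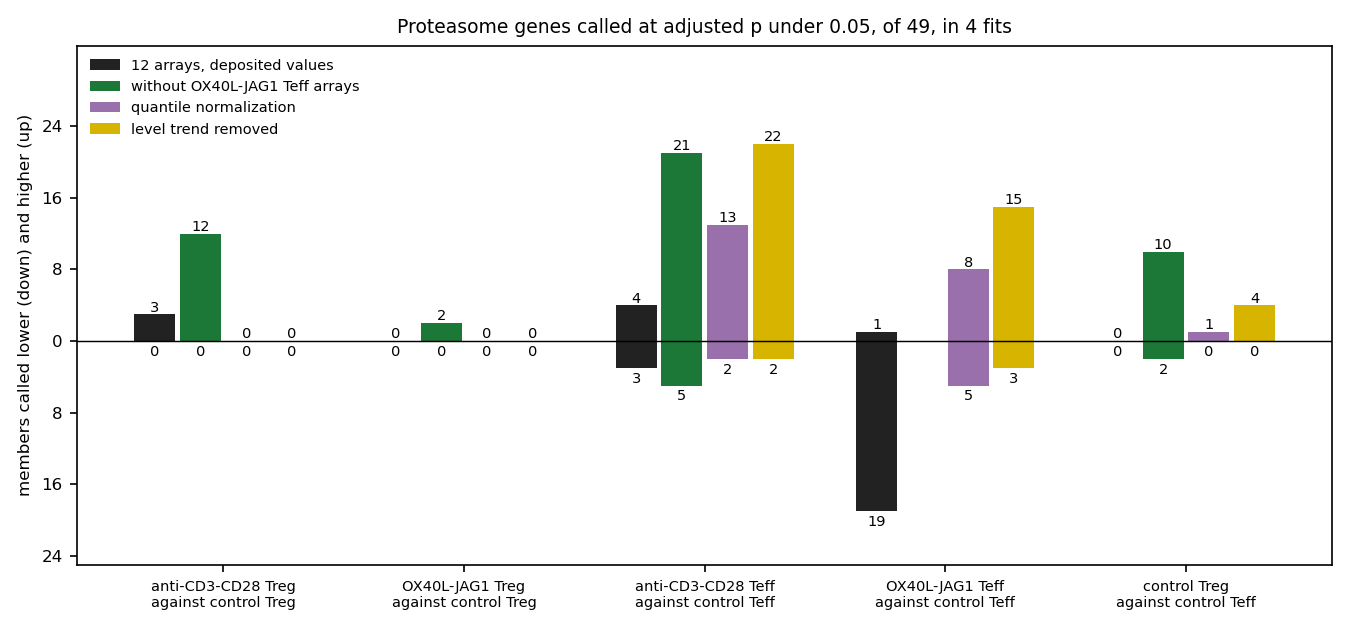
Number of the 49 genes called higher (above the line) and lower (below it) at an adjusted p under 0.05, in the fit over 12 arrays and 3 other settings, with OX40L-JAG1 Teff against control having no value without its own arrays. In anti-CD3-CD28 Teff against control the settings call 4 to 22 genes higher, and in OX40L-JAG1 Teff they call 19, 5 and 3 lower.

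In OX40L-JAG1 Teff most proteasome genes read below fresh Teff on the deposited scale. Of the 49, 1 rose and 19 fell against control Teff, against 20% and 26.9% of all genes, and the median change was -0.62, against 0.18 over all genes. The replicates differed: relative to control the 49 genes had a median of -0.00 on replicate 1 and -1.25 on replicate B. Psmd1 read 6.51 and 5.23 in OX40L-JAG1 Teff, 8.10 and 8.16 in anti-CD3-CD28 Teff and 8.09 and 8.12 in control Teff. Psme4 read 6.74 and 6.19 in OX40L-JAG1 Teff, 8.23 and 8.32 in anti-CD3-CD28 Teff and 8.06 and 8.12 in control Teff. Psmg2 read 6.87 and 5.75 in OX40L-JAG1 Teff, 7.15 and 7.62 in anti-CD3-CD28 Teff and 7.87 and 8.12 in control Teff. Here both OX40L-JAG1 arrays lay below both control arrays, as they did for Psmd5, Psme3 and Psmf1.

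The falls were -2.23 ± 0.35 for Psmd1 (adjusted p = 0.00055, limma), -1.99 ± 0.20 for Psmd5 (adjusted p = 5.5e-05), -1.72 ± 0.20 for Psme3 (adjusted p = 0.000103), -1.69 ± 0.31 for Psmg2 (adjusted p = 0.00145), -1.62 ± 0.21 for Psme4 (adjusted p = 0.000171) and -1.58 ± 0.24 for Psmf1 (adjusted p = 0.000415). The regulatory particle held 11 of the 19 falls, Psmd1, Psmd2, Psmd3, Psmd7, Psmd8, Psmd11, Psmd12, Psmd13, Psmd14, Psmc1 and Psmc4, from -0.60 for Psmd13 to -2.23 for Psmd1. With the level trend removed, 7 of these 11 turned positive (Psmd2, Psmd3, Psmd7, Psmd8, Psmd13, Psmc1 and Psmc4), and Psmd13 was then called higher (0.54, adjusted p = 0.0399). Psmb3, whose control level was not shown to be above background, rose by 1.14 ± 0.22 (adjusted p = 0.00196). The 20 calls became 44 without OX40L-JAG1 Teff replicate 1 and 13 without control Teff replicate 1.

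These 2 arrays have a compressed scale, and the change against control ran with level. When genes were ranked by mean level and cut into 5 equal bins, the top bin had a median change of -1.18 and 74.2% of its genes called lower, while the bottom bin had 0.55 and 35.8% called higher. Of the 47 proteasome genes, 37 lie in the top bin. With the level trend removed, the all-gene median was 0.01, against 0.18 on the deposited scale, and 15 proteasome genes were called higher and 3 lower, against 9.58% and 8.65% of all genes. Psmd1 (-1.08, adjusted p = 0.0135), Psmd5 (-0.89, adjusted p = 0.012) and Psme3 (-0.68, adjusted p = 0.0115) were the 3 still lower. Those higher included Psmb3 (1.20, adjusted p = 0.00394), Psmb7 (1.09, adjusted p = 0.00192), Psmb5 (1.31, adjusted p = 0.00772) and Psmb8 (0.95, adjusted p = 0.012). After quantile normalization 8 were higher and 5 lower, against 9.10% and 12.6%, with Psme4 (-0.77) and Psmd11 (-0.50) lower besides the same Psmd1, Psmd5 and Psme3.

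Direct comparisons with OX40L-JAG1 Teff shared this feature. Against it, anti-CD3-CD28 Teff was higher in 28 genes and lower in 0, against 18.9% and 9.15% of all genes, with Psmd1 at 2.26 ± 0.35 (adjusted p = 0.00114), Psmc1 at 2.22 ± 0.25 (adjusted p = 0.000163) and Psme4 at 1.81 ± 0.21 (adjusted p = 0.000196). After quantile normalization 8 of the 49 were called in this comparison, against 15.7% of all genes. With the level trend removed 5 were called, against 12.8%. Psmd1, Psme4, Psmc1, Psmc5 and Psmd12 were higher under both. OX40L-JAG1 Treg was higher than OX40L-JAG1 Teff in 25 genes and lower in 1, against 24.6% and 16.5% of all genes. Psmd8, of the lid, read 10.17 and 10.06 in OX40L-JAG1 Treg and 8.63 and 7.69 in OX40L-JAG1 Teff, a difference of 1.96 ± 0.27 (adjusted p = 0.000346) that was also called with the level trend removed (0.67, adjusted p = 0.0257). Psmb10 gave 1.80 ± 0.39 (adjusted p = 0.00421), Psmb9 1.13 (adjusted p = 0.0376) and Psmb8 0.90 (adjusted p = 0.0499), and with the level trend removed these were 0.51, -0.13 and -0.41, none of them called. Without OX40L-JAG1 Teff replicate 1 the 2 comparisons called 41 and 43 genes. The first called 12 without anti-CD3-CD28 Teff replicate B and 16 without its replicate 1, and the second 16 without OX40L-JAG1 Treg replicate 1 and 17 without its replicate B. The part of the marker genes of other cells in these differences was not tested.

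Fresh Treg and fresh Teff did not differ in any of the 49 genes past the threshold (limma; before adjustment, 3 higher and 4 lower), where 3.85% of all genes were called (1.34% higher and 2.51% lower). Leaving out the OX40L-JAG1 Teff pair, control Treg was higher in 10 of the genes and lower in 2, against 5.59% and 8.93% of all genes. Those higher were Psma2 (0.93, adjusted p = 0.00126), Psmb1 (0.84), Psma6 (0.74), Psmb2 (0.72), Psmb3 (0.67), Psma7 (0.63), Psmc6 (0.63), Psmc2 (0.54), Psmc3 (0.54) and Psmb5 (0.53, adjusted p = 0.0468), 7 of them of the core. Psme3 (-0.69, adjusted p = 0.00742) and Psme4 (-0.57, adjusted p = 0.0257) were lower. Psma6 read 8.64 and 8.69 in control Treg against 7.91 and 7.95 in control Teff, and Psme3 read 7.41 and 7.26 in control Treg against 8.03 and 8.03 in control Teff. Neither gene's groups overlapped.

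After anti-CD3-CD28, few of the genes differed between the cell types. Against anti-CD3-CD28 Teff, anti-CD3-CD28 Treg was higher in 1 of the 49 genes and lower in 1, against 9.03% and 2.89% of all genes. Psmf1 read 8.08 and 8.17 in anti-CD3-CD28 Treg and 6.96 and 6.92 in anti-CD3-CD28 Teff, a difference of 1.19 ± 0.24 (adjusted p = 0.00927, limma). Psmb3 read 5.46 and 4.85 in anti-CD3-CD28 Treg and 6.02 and 5.98 in anti-CD3-CD28 Teff, a difference of -0.85 ± 0.22 (adjusted p = 0.0313). Neither gene's groups overlapped. Leaving out the OX40L-JAG1 Teff pair, 9 were higher and 8 lower, against 28.7% of all genes (18.2% higher and 10.4% lower). The difference ran with level: in the top level bin the median was 0.44, and in the fit over all arrays 23.8% of its genes were called higher. The 9 higher without that pair included 4 immunoproteasome genes of that bin, Psme1 (0.80, adjusted p = 0.00213), Psmb10 (0.76, adjusted p = 0.00519), Psmb8 (0.60, adjusted p = 0.0179) and Psmb9 (0.58, adjusted p = 0.0172). Psme2 (-0.59, adjusted p = 0.0334) was among the 8 lower. The count was 0 without anti-CD3-CD28 Treg replicate B or either anti-CD3-CD28 Teff array, and 1 without anti-CD3-CD28 Treg replicate 1 or any 1 OX40L-JAG1 Treg or control Treg array.

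The response to anti-CD3-CD28 was then compared between the cell types by the interaction, the change in Treg minus the change in Teff. It was positive in 3 genes and negative in 1, against 10.1% and 2.94% of all genes. Psmf1 gave 1.20 ± 0.34 (adjusted p = 0.0393), Psme3 1.18 ± 0.29 (adjusted p = 0.0224) and Psmd5 1.13 ± 0.29 (adjusted p = 0.0269), the 3 genes that fell in Teff. In Treg none of the 3 was called against control. Psmf1 read 8.08 and 8.17 in anti-CD3-CD28 Treg, 7.90 and 8.08 in OX40L-JAG1 Treg and 8.02 and 7.68 in control Treg. Psme3 read 7.55 and 7.65 in anti-CD3-CD28 Treg, 7.22 and 7.20 in OX40L-JAG1 Treg and 7.41 and 7.26 in control Treg. Psmd5 read 7.87 and 7.87 in anti-CD3-CD28 Treg, 7.44 and 7.58 in OX40L-JAG1 Treg and 7.94 and 7.47 in control Treg. Psmb3 gave -1.52 ± 0.31 (adjusted p = 0.0108), with 5.46 and 4.85 in anti-CD3-CD28 Treg against 5.43 and 5.57 in control Treg, and it rests on the low control Teff level given above. After quantile normalization Psmb3 was called (-1.47, adjusted p = 0.0319), and Psmf1, Psme3 and Psmd5 were not (0.60, 0.59 and 0.55). The 4 calls became 0 without anti-CD3-CD28 Treg replicate B, control Treg replicate B or control Teff replicate B, 1 without anti-CD3-CD28 Treg replicate 1, either anti-CD3-CD28 Teff array or control Teff replicate 1, and 2 without control Treg replicate 1.

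Fitted on the other 10 arrays, the interaction was called in 22 genes, 8 positive and 14 negative, against 20% and 11.0% of all genes. Among those negative were 8 of the 13 core genes, with Psmb1 (-1.35, adjusted p = 0.00286), Psma2 (-1.23, adjusted p = 0.00106), Psma6 (-1.20, adjusted p = 0.00108) and Psmb5 (-0.85, adjusted p = 0.015). With the level trend removed 0 were positive and 12 negative, against 4.14% and 3.98% of all genes, 7 of them of the core. The interaction for OX40L-JAG1 was positive in 11 genes and negative in 1 over 12 arrays, against 31.5% of all genes (21.3% positive and 10.2% negative). After quantile normalization it was positive in 1 and negative in 6, against 6.66% and 4.12%. It was called in 41 genes without OX40L-JAG1 Teff replicate 1, and Psmb3 and Psme4 were called on all 3 scales. After loess it turned negative for Psmd2 (-0.20), Psmd8 (-0.0096), Psme1 (-0.25) and Psme3ip1 (-0.29). Both interactions use the control arrays of the comparisons above.

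The assembly factors and the genes of restricted tissues completed the family. Psmg4, a chaperone of core assembly, read 5.22 and 5.13 in anti-CD3-CD28 Treg, 5.81 and 5.71 in OX40L-JAG1 Treg and 5.57 and 5.70 in control Treg, a difference of -0.46 ± 0.30 against control (adjusted p = 0.433). In Teff it read 5.84 and 6.17 with anti-CD3-CD28, 5.74 and 4.63 with OX40L-JAG1 and 5.17 and 5.37 in control cells. It was thus below control in anti-CD3-CD28 Treg and above it in anti-CD3-CD28 Teff, with no call in either. Psma8, the alpha subunit of the testis, read 3.99 and 3.72 in anti-CD3-CD28 Treg, 3.74 and 4.26 in OX40L-JAG1 Treg and 4.05 and 4.15 in control Treg. Psmb11, the catalytic subunit of thymic cortical epithelium, read 3.41 and 3.78 in anti-CD3-CD28 Treg, 3.86 and 4.19 in OX40L-JAG1 Treg and 3.63 and 3.60 in control Treg. These and Psma5, of the alpha ring, stayed below the lowest array median in all 6 groups, so no level of theirs was shown to be above background. For Psma5 this holds for the row used, the brighter of 2 rows. The letters-only genes Psmc3ip (5.81 and 5.89 in anti-CD3-CD28 Treg, 5.33 and 5.04 in OX40L-JAG1 Treg, 5.50 and 5.34 in control Treg) and Psme3ip1 (9.22 and 9.18, 9.08 and 9.11, and 9.13 and 8.97 in the same groups) gave differences of 0.43 and 0.15 against control in anti-CD3-CD28 Treg, and neither was called.

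Across the 12 arrays most members ran together. The correlation of a gene with the median of the other 46 proteasome genes, given as a description because members share arrays and the compressed scale of 2 of them, was highest for Psma3 (0.996), Psmb7 (0.970) and Psmc2 (0.970). Over the 10 arrays without OX40L-JAG1 Teff these were 0.967, 0.907 and 0.926. The same correlation turned negative without those arrays for Psme3 (0.550 with them and -0.622 without), Psmd5 (0.526 and -0.591), Psmg2 (0.651 and -0.565), Psmf1 (0.360 and -0.342) and Psme1 (0.722 and -0.227). The group with the highest mean was anti-CD3-CD28 Treg for 17 of the 47 genes, anti-CD3-CD28 Teff for 18, OX40L-JAG1 Treg for 4, OX40L-JAG1 Teff for 3, control Treg for 2 and control Teff for 3. The lowest mean was that of OX40L-JAG1 Teff for 38.

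Neighbouring pathways were read from lists of genes outside the family. Of the 10 measured genes of MHC class I peptide loading, 6 rose and 0 fell in anti-CD3-CD28 Treg against control Treg, where 8.08% of all genes were called higher. The count was 7 without the OX40L-JAG1 Teff pair, 5 when arrays were quantile normalized and 4 after loess. The median change of the list was 0.77, or 0.70 and 0.47 on the quantile and loess scales. Tap1, whose start lies beside that of Psmb9 as shown above, read 10.87 and 10.81 in anti-CD3-CD28 Treg, 10.25 and 10.52 in OX40L-JAG1 Treg and 9.32 and 9.41 in control Treg. In Teff it read 9.65 and 9.86 with anti-CD3-CD28, 8.97 and 8.84 with OX40L-JAG1 and 10.00 and 10.01 in control cells. Treg groups separated in the same order as Psmb9, and in Teff both stimulated groups lay below control. Tap1 rose by 1.47 ± 0.18 in anti-CD3-CD28 Treg (adjusted p = 0.0003, limma) and by 1.01 ± 0.18 in OX40L-JAG1 Treg (adjusted p = 0.0181). The second was not called after quantile normalization (0.96, adjusted p = 0.052) or with the level trend removed (0.89, adjusted p = 0.0768). The other rises in anti-CD3-CD28 Treg were those of the chaperones Calr (1.11), Canx (0.79) and Pdia3 (0.71) and of the loading factors Tapbpl (1.02) and Tapbp (0.97). In anti-CD3-CD28 Teff 0 rose and 1 fell, H2-K1 (-0.70, adjusted p = 0.0318), and in OX40L-JAG1 Teff 0 rose and 9 fell, where 26.9% of all genes were called lower. With the level trend removed H2-K1 was not called (-0.43, adjusted p = 0.236), and 1 of the 10 was higher and 0 lower in OX40L-JAG1 Teff.

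Of the 7 measured transcriptional regulators of proteasome genes, 1 rose in anti-CD3-CD28 Treg, Irf1, an activator of immunoproteasome genes, with 9.96 and 9.89 against 9.01 and 9.26 in control Treg (0.79 ± 0.21, adjusted p = 0.0351). Irf1 was not called after quantile normalization (0.54, adjusted p = 0.108) or with the level trend removed (0.46, adjusted p = 0.145). In anti-CD3-CD28 Teff 2 fell, Rela, of NF-kappaB (-1.71, adjusted p = 0.000179), and Nfe2l2 (-1.32, adjusted p = 0.00411), while Nfe2l1, which drives proteasome genes when proteasome activity is short, was not called in anti-CD3-CD28 Treg (0.58, adjusted p = 0.104). Of the 15 measured partners of the proteasome, 1 rose in anti-CD3-CD28 Treg, the shuttle factor Rad23b (1.18, adjusted p = 0.00354). In anti-CD3-CD28 Teff 1 rose, Sem1, a small lid subunit (2.04 ± 0.53, adjusted p = 0.0234), and 3 fell, Zfand2a (-1.17), Ube3c (-0.90) and Ubqln4 (-0.90). Pomp, the maturation protein of the core, gave 1.79 ± 0.69 there and was not called (adjusted p = 0.114). Of 4 measured genes of ubiquitin activation and of the Vcp unfoldase, 1 rose in anti-CD3-CD28 Treg, Nploc4 (1.15, adjusted p = 0.00273), and none was called in anti-CD3-CD28 Teff (limma; before adjustment, 1 higher and 1 lower). In OX40L-JAG1 Treg none of the regulators, partners or ubiquitin genes was called (limma; before adjustment, 2, 0 and 2 higher and 0, 1 and 0 lower). In OX40L-JAG1 Teff 6 of the 7 regulators, 12 of the 15 partners and all 4 ubiquitin genes read lower past the threshold, on the compressed scale described above. Once the level trend was removed, 0 regulators, 3 partners and 0 ubiquitin genes were lower there. Without the OX40L-JAG1 Teff pair, 3 regulators, 6 partners and 3 ubiquitin genes were called higher in anti-CD3-CD28 Treg, where 14.8% of all genes were. In anti-CD3-CD28 Teff 1, 4 and 1 were then higher and 3, 6 and 1 lower, against 12.5% and 16.5% of all genes. In OX40L-JAG1 Treg 2, 0 and 0 were then higher and 0, 1 and 0 lower, against 3.40% and 2.01% of all genes. Rad23b in anti-CD3-CD28 Treg and Sem1, Rela and Nfe2l2 in anti-CD3-CD28 Teff were also called on the quantile and loess scales.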

How the data were processed

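Total RNA of 12 samples was hybridised to Affymetrix Mouse Gene 2.0 ST arrays. The deposited values are log2 intensities that the authors made with RMA, per the submitters' processing notes; its version and the annotation build are not given in the sources used here. Of 41345 rows, 23521 carry 1 gene symbol, 1814 several and 16010 none. Rows with 1 symbol gave 22180 genes, and 1082 genes had more than 1 row, of which the brightest on average was kept. limma 3.58.1 (R 4.3.3) was fitted to all genes with a mean per group (6 residual degrees of freedom), for 9 comparisons and 2 interactions, two-sided, with Benjamini-Hochberg adjustment within each. The fit was tested on simulated data. Every array is given for Psmb5 to Psmb10, Psme1, Psme2 and the gene with the highest and lowest change of each role in anti-CD3-CD28 Treg against control Treg; further members were named because they passed a threshold. The members and gene lists were chosen with earlier results of these data known. The deviations of same-numbered replicates were weakly correlated (15 correlations, -0.0693 to 0.182), which cannot exclude a pairing. No label states one, so the numbers were not taken as pairs. Alternatives were a replicate block, dim genes left out, trended robust moderation, quantile normalization, array weights, the mean of a gene's rows, fewer arrays, and cyclic loess. Cyclic loess, the other scales for catalytic pairs, the neighbouring lists' counts under other settings and the lower limit set for Psmb3 were chosen after seeing the data.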

Additional observations from a re-analysis of the deposited data

Results flagged for a closer look

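The response to stimulation differed between the cell types in 4 of the 49 genes for anti-CD3-CD28 and 12 for OX40L-JAG1. This was by the test of the difference itself (limma, adjusted over all genes), which called 13.1% and 31.5% of all genes. Values are the log2 change in Treg minus the log2 change in Teff, each against its fresh control. For anti-CD3-CD28 they were 1.20 for Psmf1, 1.18 for Psme3, 1.13 for Psmd5 and -1.52 for Psmb3. For OX40L-JAG1 the values in the regulatory particle were 2.25 for Psmd1, 1.46 for Psmd8, 1.43 for Psmd11, 1.23 for Psmd2 and 1.21 for Psmd3. Those of activators were 2.14 for Psme4, 1.59 for Psme3 and 1.18 for Psme1, and those of assembly genes and the inhibitor were 1.80 for Psmd5 and 1.72 for Psmf1. Psme3ip1 gave 1.16, and Psmb3, of the core, gave -1.27. Psmb3 was past the threshold for both stimuli under quantile normalization and cyclic loess, and Psme4 was so for OX40L-JAG1. The control Teff level of Psmb3 was not shown to be above background. With the level trend between arrays removed by cyclic loess, the OX40L-JAG1 values turned to -0.20 for Psmd2, -0.0096 for Psmd8, -0.25 for Psme1 and -0.29 for Psme3ip1.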

How the results depend on the processing

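Counts below are of the 49 genes called in either direction. Shares of all genes are also in either direction. They are not given for array weights, only the arrays compared, the replicate block or fits that leave out 1 array. In anti-CD3-CD28 Treg against control Treg, 3 were called, and 10 with array weights, 11 with only the arrays compared, 12 without the OX40L-JAG1 Teff arrays and 0 after quantile normalization or cyclic loess. The fit over 12 arrays called 10.1% of all genes, the fit without those arrays 21.5%, quantile normalization 6.88% and loess 10.2%. In anti-CD3-CD28 Teff against control Teff, 7 were called, and 25 with weights, 25 with only the arrays compared and 26 without the OX40L-JAG1 Teff arrays. There were 15 after quantile normalization and 24 after loess. Here the fit over 12 arrays called 15.2% of all genes, the fit without those arrays 28.9%, quantile normalization 11.6% and loess 15.2%. In OX40L-JAG1 Teff against control Teff, 20 were called, 13 after quantile normalization and 7 with only the arrays compared. The fit over 12 arrays called 46.9% of all genes there and quantile normalization 21.7%. OX40L-JAG1 Treg against control Treg gave 0, and 2 without the OX40L-JAG1 Teff arrays, against 1.56% and 5.41% of all genes. Anti-CD3-CD28 Treg against OX40L-JAG1 Treg gave 0, and 10 with weights, 9 with only the arrays compared and 10 without the OX40L-JAG1 Teff arrays. Anti-CD3-CD28 Teff against OX40L-JAG1 Teff gave 28, and 13 with weights, 1 with only the arrays compared, 8 after quantile normalization and 5 after loess. OX40L-JAG1 Treg against OX40L-JAG1 Teff gave 26, and 14, 2, 5 and 5 under the same settings. Control Treg against control Teff gave 0, and 15, 9, 1 and 4 under them and 12 without the OX40L-JAG1 Teff arrays. In these last 3 comparisons, in that order, the fit over 12 arrays called 28.1%, 41.1% and 3.85% of all genes. Quantile normalization called 15.7%, 18.1% and 2.96%, and loess 12.8%, 12.9% and 4.80%. The control comparison called 14.5% without the OX40L-JAG1 Teff arrays. Anti-CD3-CD28 Treg against anti-CD3-CD28 Teff gave 2, and 13 with weights, 13 with only the arrays compared, 17 without the OX40L-JAG1 Teff arrays and 6 after loess. The anti-CD3-CD28 interaction gave 4, and 18, 22, 22 and 12 under these 4 settings, and the OX40L-JAG1 interaction gave 12, and 7 after quantile normalization. The cause of these shifts was not tested.

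Leaving out 1 array at a time, the counts ran from 0 to 12 in anti-CD3-CD28 Treg and 0 to 2 in OX40L-JAG1 Treg against control Treg, 0 to 26 in anti-CD3-CD28 Teff and 13 to 44 in OX40L-JAG1 Teff against control Teff, and 0 to 10 between the stimulated Treg groups and 12 to 41 between the stimulated Teff groups. Between Treg and Teff they ran from 0 to 17 with anti-CD3-CD28, 16 to 43 with OX40L-JAG1 and 0 to 12 in control cells, and for the interactions from 0 to 22 with anti-CD3-CD28 and 8 to 41 with OX40L-JAG1. The highest count came without OX40L-JAG1 Teff replicate 1 in every one of these comparisons, shared with replicate B where both gave it. A lone array was assumed to vary like the other groups. With the replicate number as a block, 2 genes were called in anti-CD3-CD28 Treg against control Treg, 29 in anti-CD3-CD28 Teff against OX40L-JAG1 Teff and 3 in anti-CD3-CD28 Treg against anti-CD3-CD28 Teff, and the other counts equalled those above. The block was not read as a pairing. No label states one, and the correlations of same-numbered arrays (-0.0693 to 0.182) cannot exclude one. Leaving out dim genes, trended robust moderation and averaging a gene's rows kept each count within 1.5 times.

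Signs of called values turned only in comparisons that hold the OX40L-JAG1 Teff arrays. After loess, OX40L-JAG1 Teff against control Teff gave 0.33 for Psmc1, 0.50 for Psmc4, 0.54 for Psmd13, 0.34 for Psmd2, 0.12 for Psmd3, 0.29 for Psmd7, 0.41 for Psmd8, 0.077 for Psme1 and 0.20 for Psme3ip1. OX40L-JAG1 Treg against OX40L-JAG1 Teff gave -0.31 for Psma3, -0.41 for Psmb8, -0.13 for Psmb9, -0.28 for Psmc4, -0.055 for Psmd13, -0.42 for Psmd2, -0.050 for Psmd3, -0.34 for Psmd7, -0.029 for Psme3 and -0.077 for Psmg1. Anti-CD3-CD28 Teff against OX40L-JAG1 Teff gave -0.17 for Psmb7, -0.021 for Psmc3, -0.28 for Psme1 and -0.11 for Psme3ip1, and the OX40L-JAG1 interaction -0.20 for Psmd2, -0.0096 for Psmd8, -0.25 for Psme1 and -0.29 for Psme3ip1. After quantile normalization, OX40L-JAG1 Teff against control Teff gave 0.041 for Psmc1, 0.26 for Psmc4, 0.37 for Psmd13, 0.13 for Psmd2, 0.042 for Psmd7 and 0.18 for Psmd8. OX40L-JAG1 Treg against OX40L-JAG1 Teff gave -0.090 for Psmc4, -0.28 for Psmd2 and -0.16 for Psmd7, anti-CD3-CD28 Teff against OX40L-JAG1 Teff -0.022 for Psmb7, -0.020 for Psme1 and -0.021 for Psme3ip1, and the interaction -0.0069 for Psme3ip1. Only Psmd13 was past the threshold in the turned direction in OX40L-JAG1 Teff against control Teff, after loess. The number of arrays limits all of these values, and Psma5, Psma8 and Psmb11 lay near background.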
